A study of Drosophila melanogaster with 16 samples.

Results

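A set of 118 probe sets shared one pattern over 16 single flies: high in normoxic dmDys flies, and lower both in normoxic WT flies and in dmDys flies after chronic hypoxia (CH). The members were chosen on their measured values. A probe set was taken where all 4 normoxic dmDys flies lay above all 4 normoxic WT flies and above all 4 CH-dmDys flies, with both differences between means at least 1 on the log2 scale, which is a doubling. Heat shock genes (Hsp) and genes whose names start with Cyp, Gst, Obp, Jon, Lys, Cht or Cpr were left out, as were the array's AFFX control probe sets. The members are 118 of 18952 probe sets on the array, or 0.629% of the 18769 that are not controls. Of these members 101 carry 1 gene symbol, 6 carry several and 11 carry none. The same rule turned round, low in normoxic dmDys flies and higher in both other groups, found 207 probe sets.

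RNA of 1 whole fly was hybridised to each Affymetrix Drosophila Genome 2.0 array after amplification, with 4 flies in each of 4 groups. In dmDys flies the ubiquitous driver P-tub-Gal4 expresses the UASdmDysC-term construct, an RNA interference hairpin against every isoform of dystrophin, the protein that links the cytoskeleton of muscle to its membrane. WT flies carried the P-tub-Gal4 driver without the hairpin. CH-dmDys flies spent 16 days on Mount McKinley in hypobaric hypoxia, up to 6194 m and from 16.3% down to 9.9% oxygen, and CH-WT flies were kept in a normobaric chamber that followed this oxygen course. All were adults of 3 to 5 days of age with an exposure labelled as 2 weeks, and the normoxic flies of both strains were kept in room air. Strain, kind of hypoxia and place therefore cannot be told apart where CH-dmDys flies are set beside CH-WT flies. Normoxic dmDys and CH-dmDys flies also differed in place, travel and barometric pressure. The paper leaves room for an influence of temperature, humidity and pressure. From qPCR of selected genes in normobaric hypoxia it proposes hypoxia as the major factor. In what is called CH in dmDys flies below, oxygen and these other factors cannot be told apart. Nothing in the sources says that flies of a group came from separate cultures, so p-values measure the spread between these flies.

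Because a whole fly was measured, fewer cells of a type and less RNA per cell cannot be told apart. The median of 38 testis marker genes was 2.16 in normoxic WT replicate 5 and 2.29 in CH-WT replicate 7, the floor of the arrays, against 10.4 to 10.83 in normoxic dmDys flies and 10.52 to 10.88 in CH-dmDys flies. These 2 WT flies are called the WT flies without testis RNA below, and results that rest on them are given with and without them. The 24 muscle structure genes had medians of 12.6 to 13.22 in normoxic dmDys flies, 12.49 to 12.99 in CH-dmDys flies and 13.84 to 14.35 in normoxic WT flies, so muscle RNA was present in every fly. The 16 fat body and haemolymph genes had medians of 6.65 to 8.5 in normoxic dmDys, 7.04 to 7.6 in CH-dmDys and 3.54 to 4.84 in normoxic WT flies. In CH-WT flies these medians ranged widely, from 3.39 in replicate 6 to 9.81 in replicate 7, and their part in CH-WT levels of members was not tested. The 26 egg and yolk genes lay at the floor in all groups, with medians of at most 2.19. The difference between 3′ and 5′ control probe sets, which grows as RNA is shortened, was 5.76 to 10.34 in normoxic dmDys flies, 2.95 to 4.09 in CH-dmDys flies, 6.97 to 7.34 in normoxic WT flies and 4.51 to 6.78 in CH-WT flies. It therefore moved with the contrast between normoxic dmDys and CH-dmDys flies that chose the members, and its part in their levels was not tested. The brightest Dys probe set read 9.1, 7, 5.54 and 6.72 in normoxic dmDys flies and 8.61, 8.42, 10.41 and 8.1 in normoxic WT flies, with 8.52, 7.65, 7.99 and 7.92 in CH-dmDys flies and 8.96, 8.46, 8.91 and 9.89 in CH-WT flies. Replicate 6 of normoxic dmDys and replicate 5 of CH-dmDys thus lay among the WT flies, and the Dys mean was higher in CH-dmDys (8.02) than in normoxic dmDys flies (7.09). Whether that probe set lies in the hairpin was not examined.

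Members of known role came from several processes, and most members have no role given here. Heat shock proteins fold damaged proteins with the help of J-domain and BAG-domain co-chaperones, metallothioneins bind zinc, copper and cadmium, and amino acid shortage raises asparagine synthetase through the transcription factor ATF4. In the male germ line, spermatocytes and spermatids use genes of their own for the axoneme of the sperm tail.

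**Figure D1:**
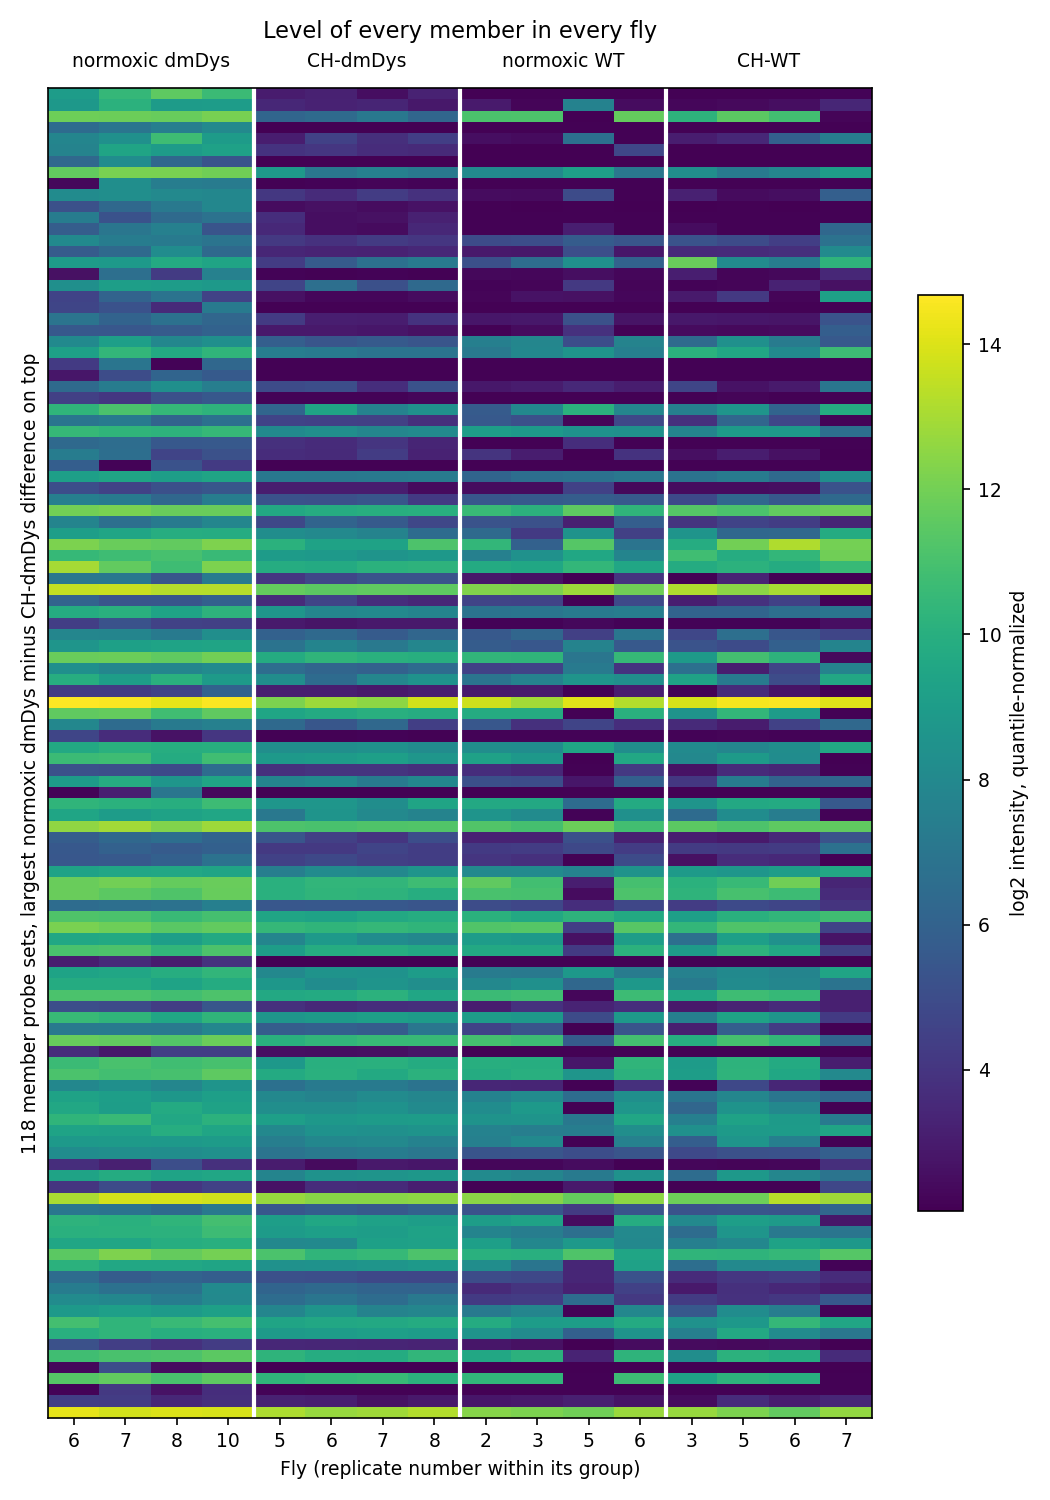
Log2 intensity, quantile-normalized over 16 arrays, of the 118 members (rows, largest difference between normoxic dmDys and CH-dmDys means on top) in each fly (columns, replicate numbers within the 4 groups). Normoxic dmDys columns are the brightest of the dmDys and normoxic WT columns by the rule, and dark cells in normoxic WT replicate 5 and CH-WT replicate 7 mark the 37 members that were low in both WT flies without testis RNA.

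All levels are log2 intensity and are given in the order of the replicate numbers (normoxic dmDys 6, 7, 8 and 10; CH-dmDys 5 to 8; normoxic WT 2, 3, 5 and 6; CH-WT 3, 5, 6 and 7). Levels of normoxic dmDys, normoxic WT and CH-dmDys flies are a description with no test, since the rule used them. Over the members, the normoxic dmDys mean exceeded the normoxic WT mean by a median of 2.46 (range 1.03 to 8.27) and the CH-dmDys mean by a median of 1.59 (range 1 to 7.41). Of all probe sets, 5.59% met the condition on WT flies and 5.06% the condition on CH-dmDys flies. The smaller of a member's differences was under 1.5 in 60 members, at least 2 in 35 and at least 3 in 16. In 18 members the means of the other 3 groups were all under 3, close to the floor, where the size of a difference depends on where the floor lies. Just inside the limit of 1 lay CG13428, with a difference to CH-dmDys of 1.002, and CkIIalpha-i1 with 1.012, and just outside lay CG14011 with 0.989 and Twdlalpha with 0.98.

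The members spread over many roles. Of the 18 gene lists used, 10 held at least 1 member. Among genes that act with heat shock proteins 2 of 18 were members (CG7130 and stv), among amino acid, peptide and sugar transporters 2 of 30 (path and yin), and among lipid genes 2 of 28 (CG2065 and Lip2). One gene each came from amino acid shortage (AsnS, 1 of 20), antimicrobial peptides (Drsl4, 1 of 12), gut proteases (CG5909, 1 of 27), the cell cycle (Topors, 1 of 22), RNA processing (Smn, 1 of 21), ubiquitin ligases (CG4080, 1 of 21) and testis (p-cup, 1 of 38). None of the 22 hypoxia response genes, 24 Toll and Imd pathway genes, 24 muscle structure genes or 16 fat body genes was a member. Members are 0.629% of the probe sets that are not controls. The lists were chosen with earlier results of these data known, so these counts are a description with no test. The medians of the normoxic dmDys minus CH-dmDys difference over whole lists lay at 0.17 for the heat shock partners, −0.11 for amino acid shortage and −0.06 for transporters, beside 0 over all probe sets. Of the lists with a member, the antimicrobial peptides had the lowest median (−1.51) and the cell cycle genes the highest (0.65).

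Drsl4, which encodes a peptide of the Drosomycin family of antifungal defensins, had the largest differences of all members. Its levels were 9.03, 10.48, 11.53 and 10.64 in normoxic dmDys flies, 3.03, 3.2, 2.55 and 3.25 in CH-dmDys flies and 2.15 in each normoxic WT fly. The groups did not overlap, and the CH-dmDys flies lay a little above the floor at which all 4 normoxic WT and all 4 CH-WT flies lay (2.14 to 2.16). The difference of means was 8.27 to normoxic WT and 7.41 to CH-dmDys. The other 11 measured antimicrobial peptide genes were not members, and the list's median difference, given above, was opposite in sign to that of Drsl4. GILT3, of the family of lysosomal thiol reductases, read 8.03, 7.37, 7.23 and 6.91 in normoxic dmDys flies, 4.16, 3.84, 4.24 and 4.06 in CH-dmDys flies and 4.93, 5.03, 5.75 and 5.4 in normoxic WT flies. It is one of 3 members whose CH-dmDys mean lay at least 1 below that of normoxic WT flies (−1.20), with CG10730 (−1.46) and CG16781 (−2.53).

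**Figure D2:**
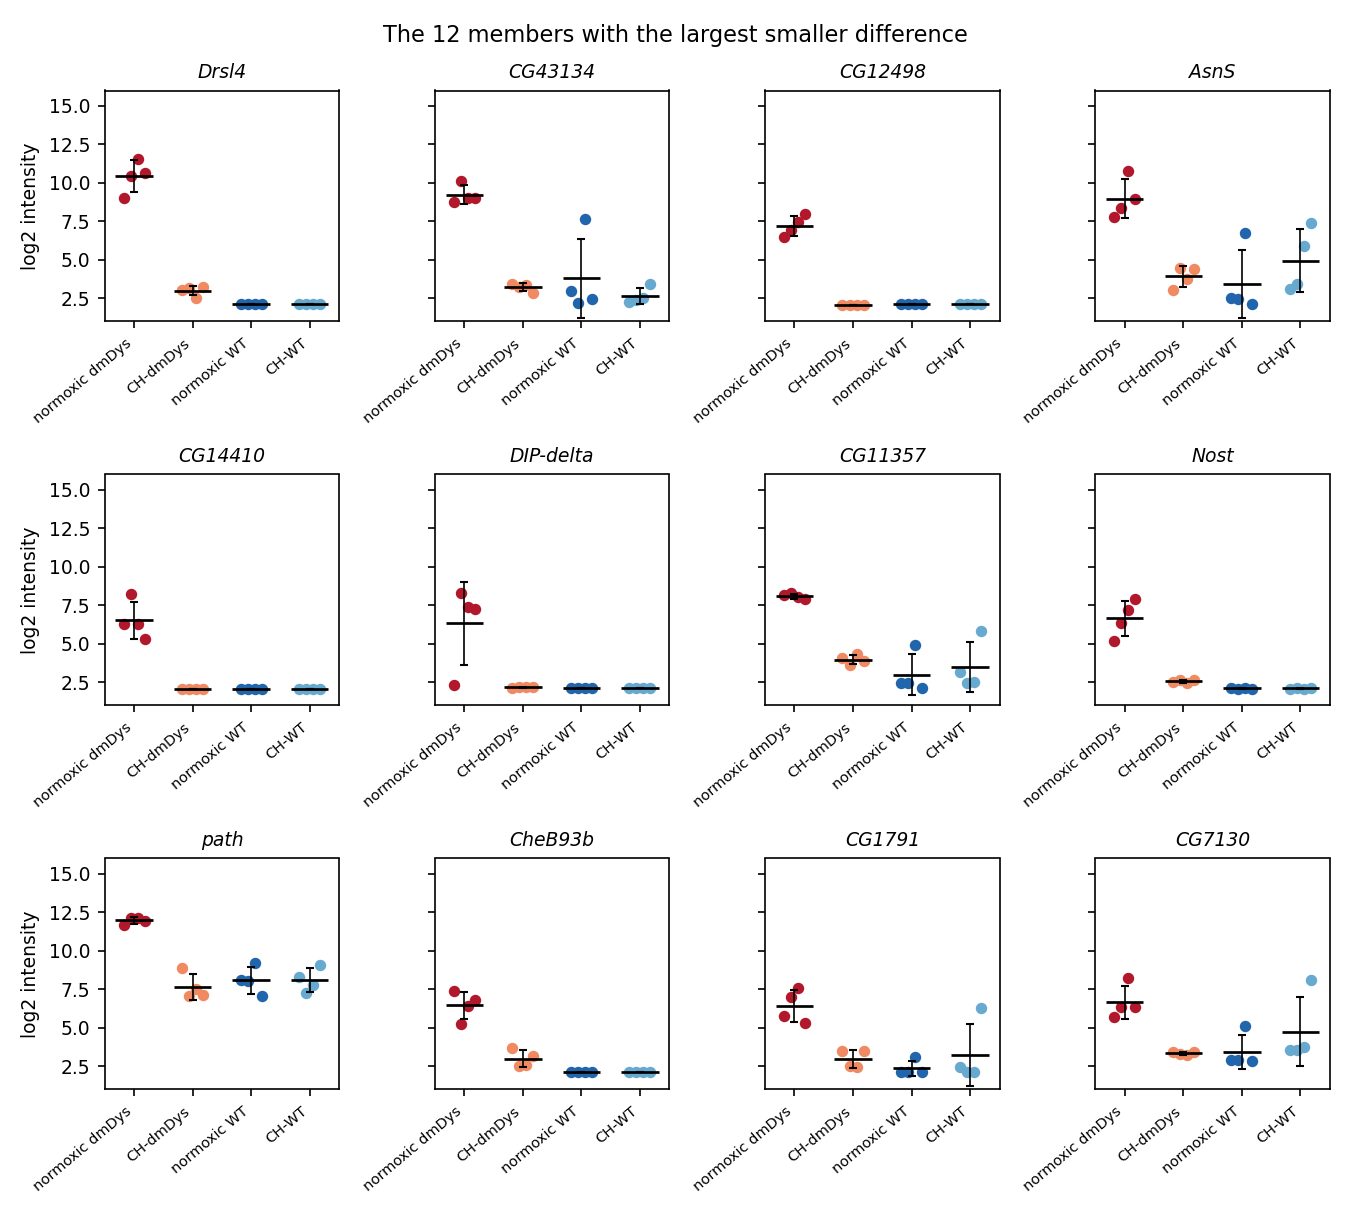
Log2 intensity of the 12 members with the largest value of the smaller of their differences, 1 point per fly, with the mean (long bar) and SD (n = 4 flies) of each group. Drsl4 and CG12498 are at the floor in all WT flies, DIP-delta is near the floor in 1 of the 4 normoxic dmDys flies, and AsnS and CG43134 are raised in normoxic WT replicate 5.

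Genes that supply amino acids, sugars and lipids held some of the largest differences. AsnS, which encodes asparagine synthetase, read 7.81, 8.4, 10.75 and 8.96 in normoxic dmDys flies and 3.07, 4.5, 3.74 and 4.38 in CH-dmDys flies. In normoxic WT flies it read 2.51, 2.43, 6.72 and 2.12, and in CH-WT flies 3.08, 3.45, 5.91 and 7.4. Normoxic WT replicate 5 and CH-WT replicates 6 and 7 were thus well above their fellows, though below every normoxic dmDys fly.

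The transporter genes were steadier. The levels of path, an amino acid transporter of the SLC36 family that acts on growth signalling, were 11.65, 12.15, 12.15 and 11.95 in normoxic dmDys flies, 8.86, 7.04, 7.55 and 7.14 in CH-dmDys flies and 8.11, 8.05, 9.2 and 7.06 in normoxic WT flies. Its CH-WT levels, 8.3, 7.25, 7.81 and 9.07, fell in the range of the other 2 low groups, and no CH-WT fly came near the normoxic dmDys flies. The peptide transporter gene yin read 8.64 to 9.42 in normoxic dmDys flies, 6.88 to 7.87 in CH-dmDys flies and 5.47 to 5.74 in 3 normoxic WT flies, with normoxic WT replicate 5 at 7.7 and CH-WT replicate 7 at 7.73.

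The sugar-related members were outside the rule for named genes and were picked after their values were seen. The α-glucosidase gene tobi, a target of insulin and glucagon-like signalling in the fly, read 4.7, 5.24, 3.57 and 7.24 in normoxic dmDys flies and 2.12 to 2.13 in all 12 others. The transcription factor gene sug (sugarbabe), which dietary sugar induces, read 10.2 to 11.09 in normoxic dmDys flies, and its lowest CH-dmDys fly, 6.17, and lowest normoxic WT fly, 5.69, were far below the highest, 9.44 and 10.13. Gbs-70E, a glycogen-targeting subunit of protein phosphatase 1, differed by 1.68 from normoxic WT and by 1.1 from CH-dmDys.

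Among lipid genes, CG2065, of the short-chain dehydrogenase family, read 8.34, 9.11, 9.02 and 8.81 in normoxic dmDys flies, 4.66, 6.66, 5.12 and 6.37 in CH-dmDys flies and 2.2, 2.21, 4.15 and 2.21 in normoxic WT flies. The 3 groups formed 3 separate steps, with CH-dmDys flies between. Jabba encodes a protein of lipid droplets and read 4.58, 6.05, 6.84 and 4.55 in normoxic dmDys flies, 2.27 to 2.61 in CH-dmDys flies and 2.23 to 2.66 in normoxic WT flies. Its CH-WT flies read 2.99, 4.13, 2.23 and 9.22, so that replicate 7 was above every other fly. A second Jabba probe set had means of 6.97 in normoxic dmDys and 7.47 in CH-dmDys flies and lacked the fall under CH.

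The 2 members that act with heat shock proteins differed in how near their CH-WT flies lay to the normoxic dmDys flies. The BAG-family co-chaperone gene stv (starvin) read 13.52, 13.61, 13.29 and 13.28 in normoxic dmDys flies, 11.7, 11.47, 11.57 and 11.55 in CH-dmDys flies and 12.27, 12.18, 12.84 and 11.95 in normoxic WT flies. In CH-WT flies it read 13.15, 12.46, 13.03 and 13.26, just below the normoxic dmDys flies and above all CH-dmDys flies. CG7130, a J-domain protein gene, read 5.69, 6.36, 8.21 and 6.38 in normoxic dmDys and 3.25 to 3.46 in CH-dmDys flies, and its CH-WT levels of 3.55, 3.59, 3.78 and 8.1 held 1 fly as high as the normoxic dmDys flies, the one without testis RNA, and 3 close to the CH-dmDys flies. Its normoxic WT levels were 2.91, 2.89, 5.1 and 2.82. Without both WT flies that lacked testis RNA, CH-WT minus normoxic WT was alike in stv (0.74) and CG7130 (0.76). In both genes all CH-WT flies lay above all CH-dmDys flies.

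Metallothionein genes MtnC and MtnD and the carbonic anhydrase gene CAHbeta all had their CH-WT mean near that of normoxic dmDys flies, in an order of the other groups that differed between them. Of these, the metallothioneins were named after their values were seen. MtnC was among the brightest members, at 14.67, 14.61, 14.22 and 14.58 in normoxic dmDys flies, 12.17, 12.82, 12.54 and 13.79 in CH-dmDys flies, 13.72, 12.92, 14.1 and 13.2 in normoxic WT flies and 13.92, 14.48, 14.6 and 14.06 in CH-WT flies. Its CH-WT flies overlapped the normoxic dmDys flies. MtnD, at 11.66 to 12.21 in normoxic dmDys and 9.32 to 11.15 in CH-dmDys flies, varied widely in normoxic WT flies (10.42, 5.99, 11.36 and 6.92) and reached 13.16 in CH-WT replicate 6. CAHbeta, which encodes an enzyme that hydrates carbon dioxide, read 10.5, 10.76, 11.01 and 10.6 in normoxic dmDys, 8.99, 8.86, 8.6 and 8.8 in CH-dmDys, 7.55, 8.45, 9.55 and 7.76 in normoxic WT and 10.82, 9.89, 10.39 and 11.92 in CH-WT flies. All 4 CH-WT flies were above all 4 normoxic WT and all 4 CH-dmDys flies.

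**Figure D3:**
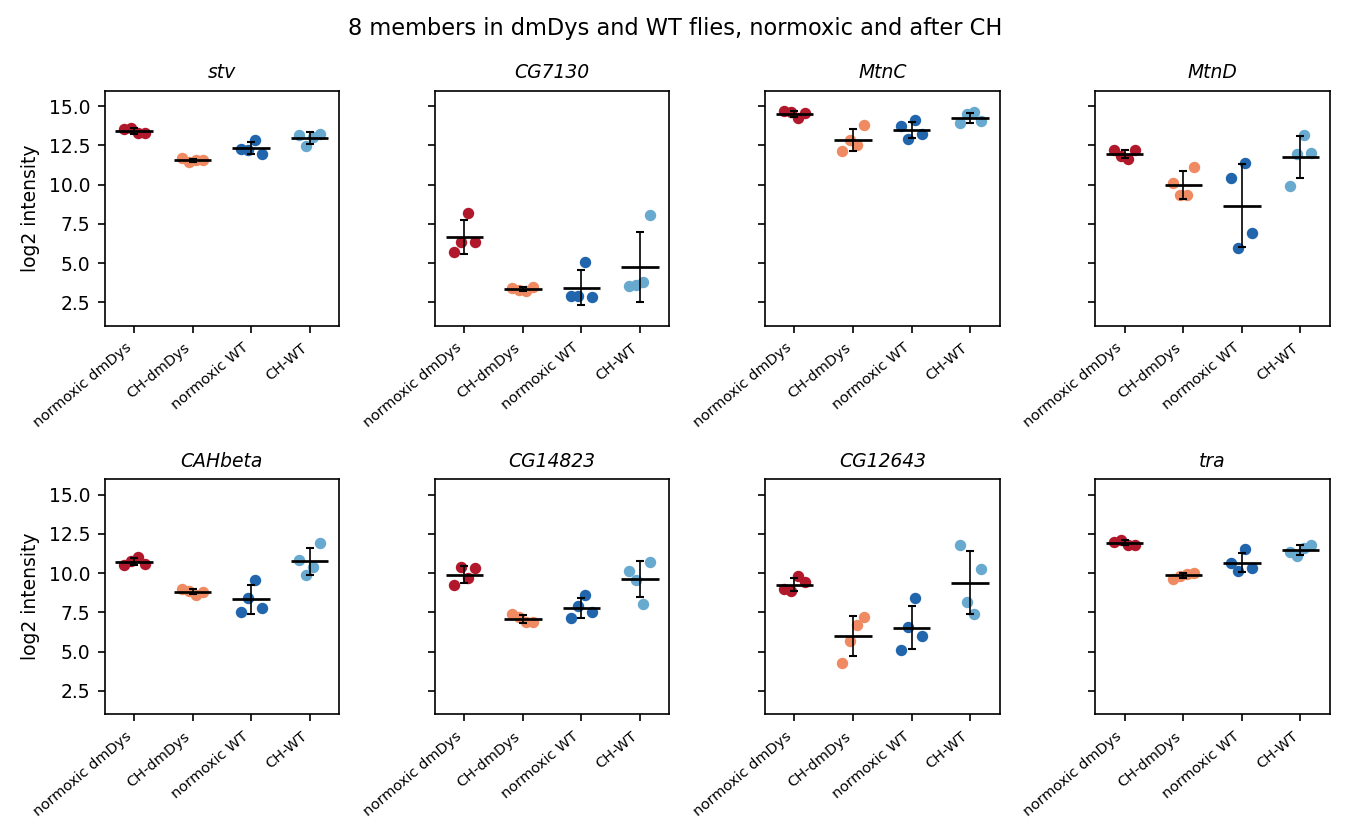
Log2 intensity of 8 members, 1 point per fly, with the mean (long bar) and SD (n = 4 flies) of each group. CH-WT flies lie near the normoxic dmDys flies in MtnC, CAHbeta and tra, and in CG14823 apart from replicate 6 (8.05). In CG7130 1 CH-WT fly does and the other 3 read 3.55 to 3.78.

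CH-WT flies were not used by the rule, so that 2 comparisons can be tested, with the limit that the flies they are set against were chosen as low. The first asked whether members changed in WT flies under CH. With limma and a Benjamini-Hochberg adjusted p under 0.05 together with a difference of at least 1, none of the 118 members was called higher or lower in CH-WT than in normoxic WT flies, where 0.0107% of all probe sets were called higher and 0% lower. At an unadjusted p under 0.05, 7 of 118 members (5.93%) passed, beside 226 of 18769 probe sets (1.2%). The means were at least 1 higher in CH-WT flies in 12 members (10.2%) and at least 1 lower in 2 (1.69%), beside 2.53% and 1.7% of all probe sets. Without the WT flies that lacked testis RNA, 7 members were at least 1 higher (5.93%, beside 2.07% of all), and 6 of the 12 were among them. These shares are not matched for level. Of all probe sets, 47.3% had a normoxic dmDys mean under 3, near the floor, whereas the lowest such mean of a member was 3.12. The same limit holds for the other shares of members set beside all probe sets.

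The members at least 1 higher in CH-WT flies were MtnD (3.10), CG12643 (2.86), CAHbeta (2.43), Jabba (2.18), salm (1.85), CG14823 (1.82), AsnS (1.52), CG7130 (1.32), CG5909 (1.22), kmg (1.19) and both probe sets that match CG42662 and CG30080 (1.23 and 1.02). Without both flies the difference was 3.90 for MtnD, 3.19 for CG12643, 2.45 for CAHbeta, 2.04 for salm, 1.8 for AsnS and 1.73 for CG14823. It fell to 0.72 for Jabba, 0.76 for CG7130, 0.46 for CG5909 and 0.46 for kmg. For the probe sets of CG42662 and CG30080 it fell to 0.96 and 0.71. The flies did not overlap in CAHbeta and in the probe sets of CG42662 and CG30080, 3 members (2.54%) beside 0.511% of all probe sets, and in no member did all CH-WT flies lie below all normoxic WT flies, which 0.282% of all probe sets did. CAHbeta had a standard error of 0.61 (unadjusted p = 0.00636, adjusted p = 1 by limma).

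The second comparison set CH-dmDys beside CH-WT flies and asked which members differed under CH. By limma with the same thresholds, 15 of 118 members were higher in CH-dmDys flies, where 4.5% of all probe sets were, and 6 were lower, where 7.8% were. The split moved with the scaling of the arrays, for members and for all probe sets alike. On the values as deposited it was 34 higher (28.8%, beside 17.3% of all probe sets) and 0 lower (beside 4.97%). With arrays scaled to their 75th percentile it was 8 higher (6.78%, beside 5.03%) and 26 lower (22%, beside 57.4%), and that scaling moved the median difference of all probe sets from 0 to −1.26. Of the lower calls, stv (−1.40, adjusted p = 0.00337), tra (−1.60, adjusted p = 0.00198), CAHbeta (−1.94, adjusted p = 0.022), CG14823 (−2.51, adjusted p = 0.024) and MtnC (−1.43, adjusted p = 0.0371) were below CH-WT. On the values as deposited the difference between CH-dmDys and CH-WT was −0.43 for stv, −0.45 for tra, −0.79 for CAHbeta and −1.43 for CG14823, none of them called. Leaving out any CH-dmDys fly or CH-WT replicate 3 also ended the calls of CAHbeta (adjusted p from 0.0559 to 0.0704) and CG14823 (adjusted p from 0.0571 to 0.0744).

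The higher calls were led by a probe set without a gene symbol (3.87), CG2065 (3.12), the centriole gene Sas-6 (2.87), CG32681 (2.43) and Lpt (2.36), whose product belongs to a histone methyltransferase complex. Sas-6 read 7.34, 6.78, 6.77 and 8.09 in normoxic dmDys flies, 6.14, 6.39, 6.1 and 6.08 in CH-dmDys flies, 3.54, 3.97, 3.23 and 4.5 in normoxic WT flies and 2.91, 3.82, 3.46 and 3.03 in CH-WT flies. Every dmDys fly was above every WT fly, and CH-dmDys flies kept most of the distance (adjusted p = 0.000533 by limma against CH-WT). Lpt followed with 6.52 to 7.15 in CH-dmDys and 3.86 to 5.54 in CH-WT flies. After adjustment for the 3′ to 5′ control values, CG2065 (2.42, adjusted p = 0.174 by limma), CG32681 (2.44, adjusted p = 0.104) and Lpt (0.61, adjusted p = 0.252) were no longer called, and Sas-6 was. Topors, CG9662 and BOD1 also lost their calls. The control values do not overlap between the groups (2.95 to 4.09 in CH-dmDys and 4.51 to 6.78 in CH-WT flies). This fit therefore cannot separate shortened RNA from group for any of these genes. The floors and upper quartiles of the deposited arrays differ between the strains, so these distances include a step of normalization that cannot be told apart from strain.

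Members differed in the position of CH-dmDys flies relative to normoxic WT flies. In 80 members the CH-dmDys mean was within 1 of the normoxic WT mean, in 35 it stayed at least 1 above and in 3 it was at least 1 below, with a median of 0.50 (range −2.53 to 3.82). The 4 CH-dmDys flies were all above the 4 normoxic WT flies in 26 members (22%, beside 14.9% of all probe sets), all below in 11 (9.32%, beside 43.4%) and overlapped in 81. The rule placed both groups below normoxic dmDys flies, and these shares are a description. Some of the flies without overlap differ only by offsets at the floor, of −0.01 in CG12498 and CG14410 and 0.02 in CG14369 and RFeSP. A Dys probe set at 2.11 in every dmDys fly and 2.12 in every WT fly also counts as below.

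A further part of the set followed the WT flies without testis RNA. Both WT flies without testis RNA lay below all other WT flies, with means at least 1 apart, in 37 members. That is 31.4% of members, beside 10.9% of all probe sets. These 37 are defined by those flies alone: they hold 3 of the 7 members given a role in the male germ line, axoneme or centriole, and also salr, CadN and Liprin-alpha. One of the flies, normoxic WT replicate 5, entered the mean that chose the members. Without it, the median difference of these 37 members to normoxic WT fell from 2.5 to 1.11, and 23 of 37 still had a difference of at least 1, beside 104 of 118 members in all. The bromodomain gene tbrd-1, expressed in spermatocytes, read 10.82, 11.03, 11.15 and 11.51 in normoxic dmDys, 10.28, 9.86, 9.83 and 10.36 in CH-dmDys and 9.64, 10.17, 3.33 and 10.25 in normoxic WT flies, so its difference to normoxic WT was 2.78 with and 1.11 without replicate 5. FucTD, a fucosyltransferase gene, went from 2.62 to 0.47, and Cdc14, a phosphatase gene of mitotic exit, from 2.06 to 0.77.

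**Figure D4:**
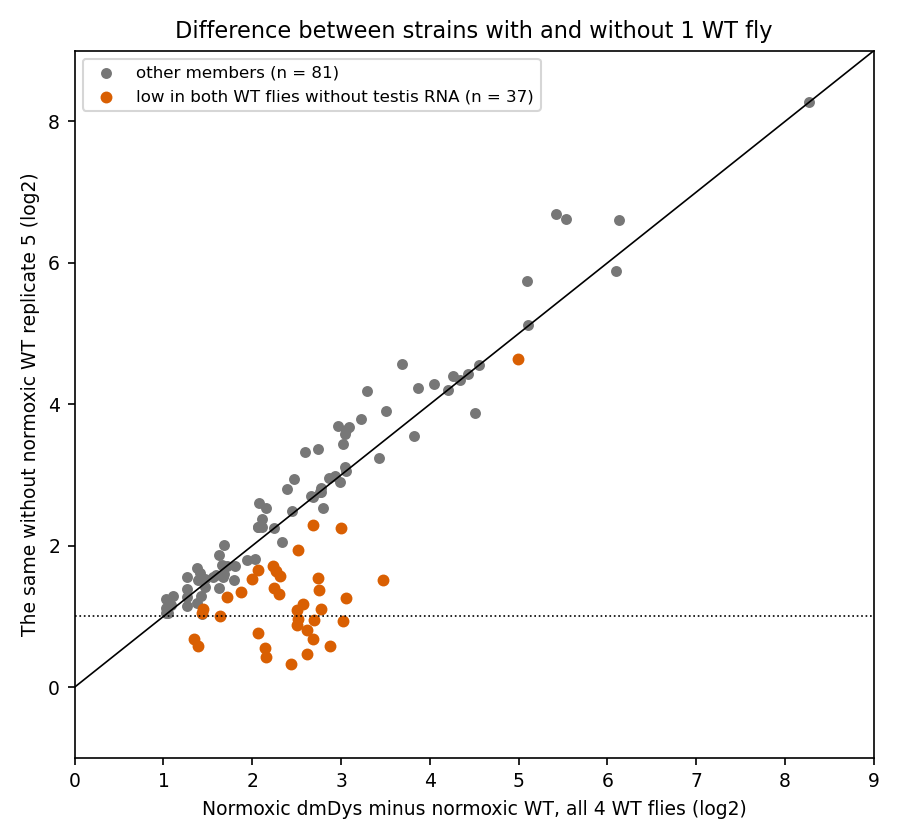
Difference between normoxic dmDys and normoxic WT means (log2) of each member with all 4 WT flies (x axis) and without normoxic WT replicate 5 (y axis), with the line of equal values and a dotted line at 1. The 37 members low in both WT flies without testis RNA (orange) have a median of 2.5 on the x axis and 1.11 on the y axis.

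Other members of the 37 kept more of their difference or less. The axonemal dynein heavy chain gene Dhc62B read 5.49, 5.58, 5.94 and 6.83 in normoxic dmDys flies, 4.48, 4.78, 4.44 and 4.35 in CH-dmDys flies and 3.99, 3.83, 2.13 and 4.94 in normoxic WT flies, a difference of 2.23 with and 1.71 without replicate 5. The spermatid gene p-cup read 5.2, 5.08, 4.9 and 6.52 against 3.75 to 3.96 and 2.15 to 4.16, a difference of 2.06 with and 1.65 without that fly. CG16781 went from 2.88 to 0.58. It read 11.73 to 12.09 in normoxic dmDys flies, 6.17 to 7.13 in CH-dmDys flies, 11.1 to 11.68 in 3 normoxic WT flies and 2.09 in normoxic WT replicate 5. It was thus far lower in CH-dmDys flies and close to the normoxic dmDys level in the WT flies with testis RNA, while the testis marker medians of both dmDys groups overlapped.

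The transcription and RNA genes were of moderate size. The zinc-finger genes salm and salr, which set the identity of flight muscle and lie next to each other in the genome, were both members, although they were named after their values were seen. Levels of salm were 9.13, 9.49, 9.9 and 9.86 in normoxic dmDys, 8.23, 8.01, 7.72 and 6.48 in CH-dmDys, 6.41, 4.21, 8.56 and 4.44 in normoxic WT and 8.6, 6.27, 6.33 and 9.84 in CH-WT flies. In salr the normoxic dmDys flies lay closely at 9.98 to 10.33 and the CH-dmDys flies at 8.91 to 9.17, while normoxic WT replicate 5 read 5.92 and the other 3 normoxic WT flies 8.16 to 8.61. The WT flies without testis RNA were thus the highest of their groups in salm and the lowest in salr.

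Topors, a nuclear ubiquitin ligase, read 9.84, 10.08, 9.37 and 10.22 in normoxic dmDys flies, 7.73 to 8.69 in CH-dmDys flies, 6.84 to 7.4 in normoxic WT flies and 6.08 to 6.95 in CH-WT flies. Smn, which assembles spliceosomal snRNPs, read 10.52, 10.31, 10.2 and 10.53 against 7.84 to 8.27, 8.38 to 9.13 and 6.67 to 8.92 in the same order. The normoxic dmDys flies of both genes were tight and apart from all 12 others. The sex-determination splicing gene tra read 11.99, 12.13, 11.81 and 11.79 in normoxic dmDys flies, 9.65, 9.85, 9.96 and 10.01 in CH-dmDys flies, 10.63, 10.17, 11.53 and 10.33 in normoxic WT flies and 11.34, 11.08, 11.62 and 11.82 in CH-WT flies. Here CH-dmDys was the lowest group, below all WT flies.

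CG12498 and CG14410 were read above the floor in normoxic dmDys flies alone. CG12498 read 6.49, 6.94, 7.46 and 8.01 there and 2.1 to 2.12 in all 12 other flies, and CG14410 read 6.32, 8.21, 6.27 and 5.34 there and 2.09 to 2.1 elsewhere. The chemosensory genes CheB93a and CheB93b, neighbours in the genome, read 2.87 to 4.4 and 5.23 to 7.37 in normoxic dmDys flies, 2.53 to 2.78 and 2.54 to 3.7 in CH-dmDys flies and 2.11 to 2.12 in every WT fly. Their group order was the same at different brightness.

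Other genes among the 12 leading members are named here without a role or with a family name alone. CG43134 read 8.77, 10.15, 8.99 and 9.04 in normoxic dmDys flies, 2.88 to 3.44 in CH-dmDys flies and 2.29 to 3.43 in CH-WT flies, with normoxic WT replicate 5 at 7.63 above its fellows at 2.21 to 2.96. CG11357 read 7.91 to 8.29 in normoxic dmDys flies, the tightest of the leading members, and 3.63 to 4.32 in CH-dmDys flies. Both were raised in a WT fly without testis RNA, CG43134 in normoxic WT replicate 5 and CG11357 in that fly (4.96) and in CH-WT replicate 7 (5.86).

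Nost, which encodes a protein with F-BAR and SH3 domains, read 5.21, 6.33, 7.18 and 7.9 in normoxic dmDys flies, 2.48 to 2.66 in CH-dmDys flies and 2.1 to 2.14 in all WT flies. CG1791 read 5.79, 7.02, 7.57 and 5.32 in normoxic dmDys flies and 2.44 to 3.53 in CH-dmDys flies, and CH-WT replicate 7 at 6.26 was the one WT fly in their range. The serine protease gene CG5909 had the same kind of spread, with 6.4, 7.35, 8.35 and 7.46 in normoxic dmDys flies, 3.71 to 5.22 in CH-dmDys flies, 2.87 to 3.53 in normoxic WT flies and CH-WT replicate 7 at 7.03. In these last 2 genes a single CH-WT fly overlapped the normoxic dmDys flies and the other 3 did not.

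Some of these rested on fewer than 4 flies. DIP-delta, a neuronal surface protein of the immunoglobulin family, read 2.33, 8.31, 7.42 and 7.29 in normoxic dmDys flies and 2.12 to 2.21 in CH-dmDys flies, so that replicate 6 met the rule by a small margin at the floor. RFeSP, the Rieske protein of respiratory complex III, read 5.85, 2.16, 5.24 and 4.21 on the member probe set and 2.12 to 2.14 in all other flies. A second RFeSP probe set had means of 11.3, 11.04, 11.46 and 11.29 in normoxic dmDys, CH-dmDys, normoxic WT and CH-WT flies and showed none of this pattern. In HGTX, a homeobox gene, 1 fly (5.06) held most of the difference and the others read 2.31 to 2.64.

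Of 3 surface and synapse genes, DIP-delta differed by 4.16 between normoxic dmDys and CH-dmDys flies, Liprin-alpha by 1.18 and CadN by 1.1. CadN, the neuronal cadherin, read 10.11, 9.64, 9.63 and 9.43 in normoxic dmDys flies and 8.45, 8.48, 8.64 and 8.86 in CH-dmDys flies, while its WT flies ranged from 2.16 in CH-WT replicate 7 to 9.27 in normoxic WT replicate 6. The presynaptic scaffold gene Liprin-alpha read 8.71 to 9.32 in normoxic dmDys, 7.68 to 8.13 in CH-dmDys, 6.51 to 8.35 in normoxic WT and 6.33 to 7.85 in CH-WT flies. Both were lowest in the WT flies without testis RNA, and in Liprin-alpha the difference to normoxic WT was 1.43 with and 1.05 without replicate 5. Median levels of the 17 nervous system marker genes were 9.66 to 10.06 in normoxic dmDys and 8.99 to 9.22 in CH-dmDys flies, and 10.15 to 11.66 in normoxic WT flies, so that this list too was lower under CH in dmDys flies. Its part in the levels of these genes was not tested.

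Members of the cilium and of the germ line nucleus were not all low in the WT flies without testis RNA. IFT43, a subunit of the intraflagellar transport complex, read 7.5, 7.22, 6.25 and 7.39 in normoxic dmDys flies, 5.23, 5.17, 5.41 and 4.18 in CH-dmDys flies and 5.47, 5.63, 5.78 and 5.58 in normoxic WT flies, where replicate 5 was the highest of its group. The zinc-finger gene kmg, which keeps somatic genes off in spermatocytes, read 9, 9.86, 8.67 and 9.47 in normoxic dmDys flies, 7.23 to 8.05 in CH-dmDys flies and 5.14, 5.02, 2.84 and 5.95 in normoxic WT flies. Its CH-WT levels were 4.1, 7.37, 6.04 and 6.21, so that every dmDys fly but one, CH-dmDys replicate 7, was above every WT fly. CkIIalpha-i1, named as an interactor of a casein kinase II subunit, was faint in all groups, at 3.46 to 4.42 in normoxic dmDys, 2.62 to 3.24 in CH-dmDys and 2.73 to 3.16 in normoxic WT flies.

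Genes that modify proteins or RNA held even steps. CG4080, a membrane-bound RING-type ubiquitin ligase, read 9.19, 9.43, 9.15 and 9.4 in normoxic dmDys flies, 7.11, 7.05, 7.17 and 7.29 in CH-dmDys flies, 6.1, 6.62, 6.75 and 7.06 in normoxic WT flies and 6.86, 7.31, 6.4 and 8.29 in CH-WT flies. Dph1, which acts in making diphthamide on elongation factor 2, read 6.35 to 7.17 in normoxic dmDys and 5.49 to 5.99 in CH-dmDys flies, and 4.24 to 5.4 in normoxic WT flies. In both the normoxic dmDys flies stood above all 12 others. Rbm13, an RNA-binding protein gene, read 4.55 to 5.43 in normoxic dmDys and 2.44 to 3.08 in CH-dmDys flies, and its WT flies lay at 2.32 to 2.51 apart from the 2 flies without testis RNA (4.51 and 5.22).

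Other probe sets of the same genes seldom shared the pattern. Of 10 member genes with another probe set, 13 such probe sets were measured, 8 of them with a normoxic dmDys mean under 3. In 3 both differences were above 0, though outside CG8851 and BOD1 only by an offset at the floor. CG8851 shared the pattern on its second probe set (2.11 and 2.67), and BOD1 did so in part (0.86 and 2.67). The member probe set of CG8851 differed from normoxic WT by 3.47 with and 1.51 without normoxic WT replicate 5. CG7650 had 1.9 under CH and −0.02 between strains on another probe set. Of 100 member genes placed in the gene table, 4 pairs were direct neighbours: salr with salm, CheB93a with CheB93b, CG8001 with Dhc62B and ENGase with p-cup, whose signals cannot be assigned to strands here.

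Within the normoxic dmDys group the flies differed in how they carried the set. Replicate 10 was the highest of the 4 in 42 members, replicate 7 in 34, replicate 6 in 23 and replicate 8 in 19. Replicate 8 also had the smallest 3′ to 5′ difference of its group, 5.76 beside 8.18 to 10.34, and was the highest in Drsl4, AsnS, CG7130 and CG5909. Without replicate 8 the rule found 192 members, 115 of the 118 among them. Spread within groups, as the median SD over members, was 0.38 in normoxic dmDys, 0.24 in CH-dmDys, 0.77 in normoxic WT and 0.85 in CH-WT flies. Of all members, 15 (12.7%) were at least 1 above their fellows in both WT flies without testis RNA, among them AsnS, sug, yin, CG7130, salm and CAHbeta, beside 15.2% of all probe sets.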

How the data were processed

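Levels were measured in 16 single whole flies. The deposited values, which the authors obtained from the image files by GCRMA in GeneSpring, are linear intensity, with a column for each fly. The lowest log2 value was 2.06 in dmDys and 1.95 in WT arrays. The upper quartile was 10.18 to 10.28 in dmDys and 8.99 to 9.09 in WT arrays. The strains thus appear to have been normalized separately. This step cannot be told apart from strain in any difference between dmDys and WT flies, including the one that chose the members. Groups followed the sample titles. A few labels conflict with them (the strain of CH-WT replicate 3 is given as dmDys, and normoxic dmDys source names contain CH). For arrays, their number limits the precision.

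Here log2 of the values, with no offset, was quantile-normalized over 16 arrays, and 183 AFFX probe sets were left out. One member candidate without a symbol, listed as a heat shock gene in the study's tables, was dropped. Comparisons were fitted on their own 8 arrays with limma 3.58.1 in R 4.3.3 (no SAM package, the methods' tool, was used) and called where the p adjusted by Benjamini-Hochberg over 18769 probe sets was under 0.05 and the difference at least 1. The code was tested on simulated data. The members and 18 gene lists were chosen with earlier results of these data known. Named genes were the 12 with the largest smaller difference, list members, those nearest the limit, up to 10 called and those with several probe sets, 37 in all; others in the text (such as the metallothioneins, salm, salr, tobi, sug, GILT3, Dhc62B, tbrd-1, FucTD, Cdc14, CG12643, CG16781, CG10730, HGTX, CadN, Liprin-alpha, IFT43, Dph1, Rbm13 and kmg) were picked after their values were seen. Alternatives were the deposited values, scaling to the 75th percentile, a floor, a larger difference, no cross-hybridizing probe sets, 1 fit of all flies, a trend, a replicate block, a 3′ to 5′ covariate and leaving out flies. Neighbouring genes came from a RefSeq gene table. No sequences are shown.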

Additional observations from a re-analysis of the deposited data

Results flagged for a closer look

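In groups of 4 flies, 1 fly far from its 3 fellows is expected by chance in about 1 group in 20. Normoxic WT replicate 5, a fly without testis RNA, stood above its fellows in CG43134 (7.63, others 2.21 to 2.96), AsnS (6.72, others 2.12 to 2.51), CG11357 (4.96, others 2.15 to 2.48), CG1791 (3.11, others 2.13 to 2.14), CG7130 (5.1, others 2.82 to 2.91), CG2065 (4.15, others 2.2 to 2.21), yin (7.7, others 5.47 to 5.74) and Lpt (6.5, others 4.13 to 4.3), and below them in CG8851 (2.11, others 9.82 to 10.08). CH-WT replicate 7, the other such fly, stood above its fellows in CG1791 (6.26, others 2.13 to 2.47) and CG7130 (8.1, others 3.55 to 3.78). Among normoxic dmDys flies, replicate 6 was far below in DIP-delta (2.33, others 7.29 to 8.31), and replicate 8 was below in CG32681 (5.41, others 7.08 to 7.3) and CG8851 (10.79, others 11.6 to 11.71). CH-WT replicate 5 was above its fellows in CG32681 (3.33, others 2.1 to 2.13).

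The difference between CH and normoxic flies had opposite signs in the strains, with no overlap of flies in either, in 3 members. These were CAHbeta (2.43 in WT and −1.91 in dmDys) and both probe sets of CG42662 and CG30080 (1.02 and −1.44 on one, 1.23 and −1.17 on the other). None of the rises in WT flies was called. The fall in dmDys flies was fixed by the choice of the members, and the difference between the strains was not tested. CH was normobaric for WT and hypobaric for dmDys flies, so strain and kind of hypoxia cannot be told apart.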

How the results depend on the processing

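The 118 members became 272 on the deposited values (104 shared), 35 with both differences at least 2, and 112 to 192 with 1 fly left out (192 without normoxic dmDys replicate 8, and 171 without normoxic WT replicate 5, alone or together with CH-WT replicate 7, 104 shared). Under the other alternatives they were 91 to 119. Under every alternative run, the calls of members in CH-WT against normoxic WT flies stayed at 0. For CH-dmDys against CH-WT, the 15 higher and 6 lower members became 34 and 0 on the deposited values, 8 and 26 at the 75th percentile, 6 higher with a floor, 32 and 15 with a 3′ to 5′ covariate, and 23 higher with no minimum difference. The covariate does not overlap between these groups, so its fit cannot be told apart from group. With 1 fly left out they were 10 to 21 higher and 2 to 7 lower (2 without CH-dmDys replicate 5, 6 or 7 or CH-WT replicate 3). With replicate number as a block both became 0, on the 3 numbers that the groups share. Flies with the same number did not deviate together in every pair (correlations −0.88 to 0.67 in WT and −0.12 to 0.12 between CH groups). With 3 shared numbers in a comparison, these values cannot show whether a number marks a shared batch. Among 37 named members, scaling to the 75th percentile turned CH-dmDys minus CH-WT to −1.27 in DIP-delta, −1.3 in CG14369, −1.29 in RFeSP and −0.07 in CG7650. The first 3 lay at the floor in both groups, and this scaling moved the median of all probe sets by −1.26, so these turns are those of the scaling. Having 4 flies per group and the arrays' floor limit what can be called.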
